A study of Mus musculus with 8 samples.

Results

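The 37 genes described here were grouped as sequence-specific transcription factors other than Klf4 and Pou5f1, although Id1 lacks a DNA-binding region. They were taken by symbol from a table of 3160 genes, as every gene whose name places it in the SOX, KLF, SP, GATA, forkhead, TEAD, POU, OTX, SALL, nuclear receptor, E2F, DP, Myc-Max, ETS, ATF, AP-1, NFY, NFI, TBX, PRDM, ID, RAR, RXR, AP-2, MEIS or PBX families. They comprised 6 KLF and SP genes (Klf2, Klf6, Klf8, Klf10, Klf11, Sp4), 6 forkhead genes (Foxk1, Foxk2, Foxm1, Foxo1, Foxo3, Foxo4), 4 ETS genes (Elk4, Etv1, Etv3, Etv5), 3 AP-1 genes (Fos, Jun, Jund), 3 ATF genes (Atf1, Atf2, Atf6), 3 E2F and DP genes (E2f4, Tfdp1, Tfdp2), 2 each of SALL (Sall1, Sall4), PRDM (Prdm2, Prdm4), nuclear receptor (Nr6a1, Rarg) and TEAD (Tead1, Tead2) genes, and Mga, Sox11, Pbx3 and Id1. The rule uses symbols and no measured value. Genes of these families outside the table, Sox2, Otx2, Esrrb and Myc among them, were not analysed here.

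The cells were mouse E14Tg2A embryonic stem (ES) cells, strain 129/Ola, with no other allele or transgene named, grown on gelatin in serum with LIF, and the epiblast-like aggregates (ELA) they form as floating aggregates after 2 days in a defined N2/B27 medium without serum or LIF. At both stages the cells were trypsinised and held in cycloheximide, which stalls ribosomes, before lysis. From each lysate a small part was kept as input, a measure of total RNA, and ribosomes were precipitated from the rest with an antibody against the ribosomal protein Rpl10a (IP), a measure of ribosome-bound RNA. This gave 4 groups (ES input, ES IP, ELA input, ELA IP) of 2 libraries each. ES and ELA differ in culture form, medium and time together, and these cannot be told apart. In such bulk samples fewer cells of a type and less RNA per cell cannot be told apart either.

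Transcription factors bind short DNA motifs and raise or lower the transcription of nearby genes. ES cells hold a self-renewing state through a network in which KLF factors, among them Klf2, and Sall4 act with the core pluripotency factors, and leaving this state brings in other factors, among them SOX proteins of the early neural plate. Many factor mRNAs, those of the immediate early genes Fos and Jun above all, are short-lived, and how much of such an mRNA sits on ribosomes bears on how much protein is made.

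The libraries were of very unequal depth. The 2 ELA input libraries held 159587 and 410192 reads over the table, against 3898414 to 23483388 in the other 6, and the median read number per transcription factor gene was 20 and 45 in the ELA inputs and 431 to 2084 elsewhere. Values are normalised counts, that is reads scaled by TMM factors to a common library size, and a floor of 3 reads corresponds to 81.6 and 31.8 normalised counts in the 2 ELA inputs. The fit weighted all libraries alike, so SE and adjusted p of comparisons with the ELA inputs do not carry their larger counting error in full. This weighs most on genes with few reads there, such as Etv1 (4 and 12) and Klf8 (4 and 11). The study's methods leave out ELA input replicate 1 for its poor correlation with the other libraries, lower mapping and read quality, and more PCR duplicates. The authors state that, with it removed, significance could not be properly tested for the ribosome enrichment change of single genes. It is also the shallowest library, and it was kept here where the ELA inputs enter. The calls of the 37 genes that are gained or lost without it are given with the results. The table itself had been filtered by the authors: the larger of the 2 mean inputs was at least 50.02 deposited units for every gene, and the standard deviation of the IP over input ratio was at most 0.1998 of its mean in ELA and 0.1995 in ES. Genes whose replicates disagreed are therefore absent, and the effect of this filter on the adjusted p-values was not tested. Of the stage markers, all 5 naive ES genes in the table were lower in ELA total RNA (median log2 -2.90; Nanog log2 -2.90), of the core pluripotency genes Pou5f1 was lower (log2 -1.18) and Sall4 higher (log2 0.25), and the epiblast genes Dnmt3b (log2 2.62) and Pim2 (log2 3.36) and the neural gene Nes (log2 2.51) were higher. The markers looked up for mesendoderm, endoderm and trophoblast had no gene in the table, and of 6 fibroblast markers it held Vim, which was lower (log2 -0.90).

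Promoter sequences are shown for Fos, Jun and Sox11, which rose, and Klf2, which fell, because these genes carried large changes in total RNA. Each is the 250 bases before the annotated transcription start, from RefSeq with build GRCm38.p6, written 5′ to 3′ on the strand of the gene. Capitals mark the core of the cyclic AMP response element (CGTCA), a variant AP-1 site (TGACATCA), the TATA box (TATAAA), the CCAAT box (CCAAT) and the GC box (GGGCGG), on either strand.
Fos, chr12:85473640-85473889, plus strand: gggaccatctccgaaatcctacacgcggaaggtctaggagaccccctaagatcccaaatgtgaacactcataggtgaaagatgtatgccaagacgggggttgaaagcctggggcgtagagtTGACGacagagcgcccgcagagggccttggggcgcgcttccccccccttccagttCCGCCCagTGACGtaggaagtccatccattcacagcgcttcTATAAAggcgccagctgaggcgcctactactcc
Jun, chr4:95052223-95052472, minus strand: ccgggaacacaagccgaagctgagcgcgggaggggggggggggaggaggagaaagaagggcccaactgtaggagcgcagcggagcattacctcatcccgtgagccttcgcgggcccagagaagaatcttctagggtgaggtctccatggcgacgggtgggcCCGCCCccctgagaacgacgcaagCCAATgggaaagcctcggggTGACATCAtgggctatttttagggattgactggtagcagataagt
Sox11, chr12:27342719-27342968, minus strand: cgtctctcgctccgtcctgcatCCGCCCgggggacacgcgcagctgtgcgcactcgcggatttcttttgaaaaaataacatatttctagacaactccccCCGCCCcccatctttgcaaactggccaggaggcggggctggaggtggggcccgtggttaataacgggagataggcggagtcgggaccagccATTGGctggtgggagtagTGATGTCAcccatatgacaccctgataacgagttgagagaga
Klf2, chr8:72318812-72319061, plus strand: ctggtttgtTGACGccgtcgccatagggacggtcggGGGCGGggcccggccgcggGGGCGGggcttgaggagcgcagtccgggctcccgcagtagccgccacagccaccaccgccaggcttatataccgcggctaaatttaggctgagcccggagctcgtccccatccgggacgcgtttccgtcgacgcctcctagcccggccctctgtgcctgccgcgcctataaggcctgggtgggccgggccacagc

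The Fos promoter held a TATA box beginning 33 bases before the start and CGTCA cores beginning at 66 and 129 bases. The promoters of Jun and Sox11 shared the variant AP-1 site, 45 and 42 bases before the start, each with a CCAAT box upstream of it at 65 and 60 bases. In Klf2 the marked letters were a CGTCA core at 241 bases and GC boxes at 214 and 195 bases. RefSeq promoters were found for 26 of the 37 genes, with 38 start sites in all. Over the full 300 bases of each entry (250 before to 50 after the start) the GC box was present in 27 of these 38 promoters (71.1%) against 35.7% of all 32851 mouse promoters, the CGTCA core in 13 (34.2%) against 20.8%, and the variant AP-1 site in 3 (Jun, Klf6 and Sox11) against 3.62%. The CGTCA count includes the full element TGACGTCA, found in Nr6a1, and 1.79% of all promoters. The letters TATAAA were present in 2 (Etv1 and Fos) against 13.6%, CCAAT in 12 against 37.4%, the E-box CACGTG in 5 against 7.15%, the ETS core CCGGAAG in 2 against 8.86%, and the CArG box, the serum response element, in 1 (Klf8) against 1.63%. The AP-1 site TGANTCA was in 7.81% and the E2F site TTTGGCGC in 0.514% of all promoters, and in none of the 38. These are matches of letters only.

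Total RNA of these factors shifted in both directions between ES and ELA. Of the 37 genes, 18 were higher and 12 lower in ELA input than in ES input (limma on log2 normalised counts, adjusted p under 0.05), or 48.6% and 32.4%, where 34.5% and 35.8% of all 3160 genes were called higher and lower. Beyond 2-fold, 6 rose (Fos, Sox11, Pbx3, Nr6a1, Jun, Jund) and 4 fell (Klf2, Rarg, Klf8, Klf10), 16.2% and 10.8% against 10.5% and 7.88% of all genes. The median change was log2 0.19, against -0.02 over all genes. In ribosome-bound RNA 18 were higher and 13 lower, 48.6% and 35.1% against 41.1% and 42.3% of all genes, with a median of 0.20 against -0.02. Beyond 2-fold these were 5 and 5 (13.5% each, against 15.3% and 14.4%), the 5 lower being Klf2, Klf10, Atf1, Klf8 and Rarg. The ELA and ES libraries did not overlap for 33 of the 37 genes in input (89.2%, against 82.0% of all genes) and for 34 in IP (91.9%, against 92.1%). Without ELA input replicate 1, Atf2 and Mga gained and Foxk2 and Tead2 lost a call in total RNA. Both fractions moved the same way for most genes, with exceptions named below. Adjusted p-values of the ribosome-bound change cannot be set beside those of total RNA, since their spread was taken from the trend over all genes alone. The ribosome-bound fit left out ELA input replicate 1, and with all 8 libraries Foxm1 (adjusted p = 0.0706), Klf11 (0.0615) and Sall4 (0.0792) were not called. With each library corrected for transcript length and GC content and the replicate number as a block, the split in ribosome-bound RNA was 10 higher and 16 lower. The share of all genes called under that setting was not counted, so this split cannot be set against theirs.

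**Figure D1:**
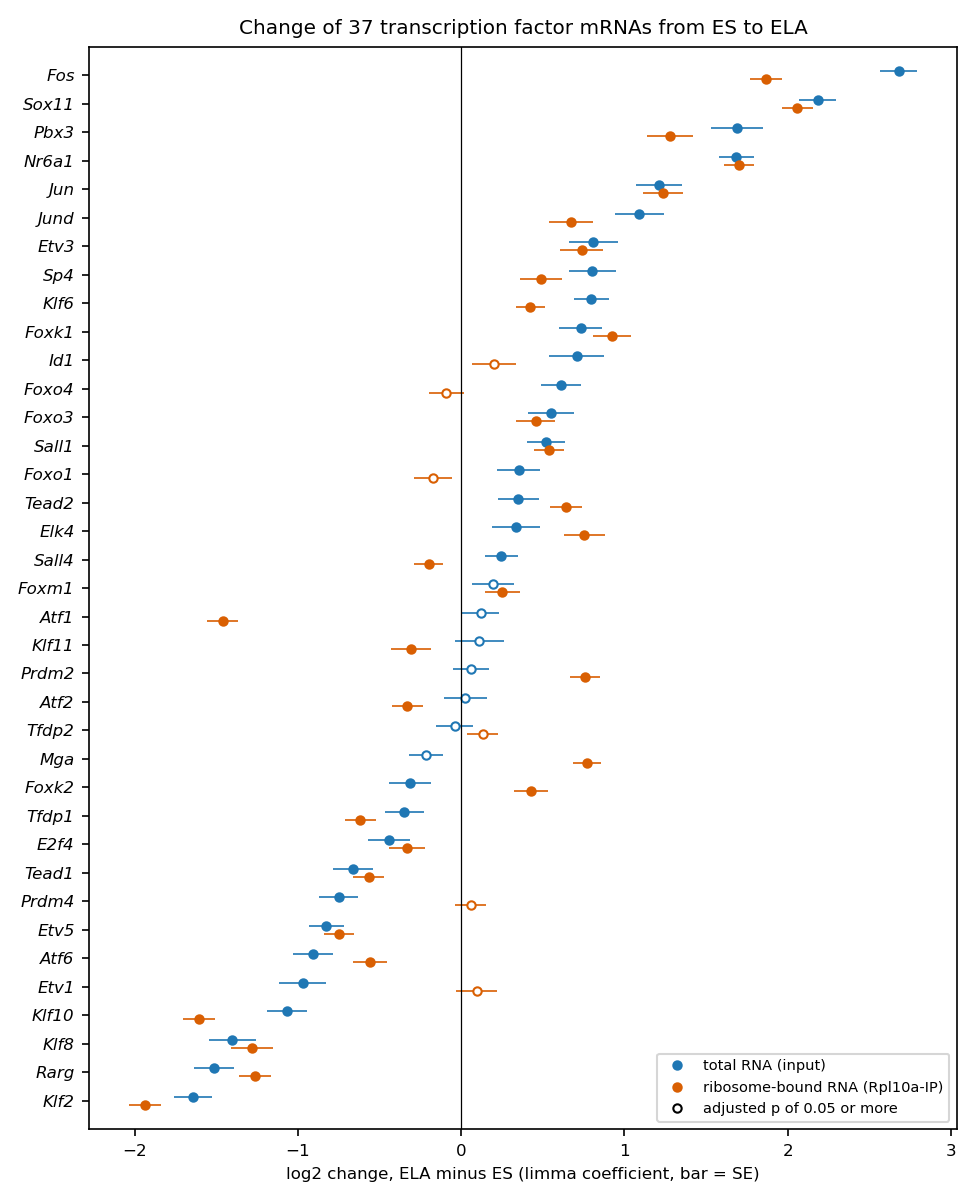
Log2 change from ES to ELA of the 37 transcription factor mRNAs in total RNA (blue) and ribosome-bound RNA (orange), ordered by the change in total RNA. Points are limma coefficients with SE bars, and open points have an adjusted p of 0.05 or more. Fos is at the top (2.68 in total RNA, 1.87 in ribosome-bound RNA) and Klf2 at the bottom (-1.64 and -1.94), while Atf1, Etv1 and Mga show the widest gaps between the fractions.

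The 3 AP-1 genes rose in both fractions (34.5% of all genes in total and 41.1% in ribosome-bound RNA). Fos encodes the leucine zipper partner that binds AP-1 sites together with a Jun protein. Its normalised counts were 354 and 379 in the ES inputs and 2419.7 and 2289.7 in the ELA inputs, on 89 and 216 reads in the latter. In the IPs they were 360.1 and 389.9 in ES and 1402 and 1338 in ELA. Every ELA library lay far above every ES library, and within ELA both IPs lay below both inputs. Total Fos RNA was 6.42-fold higher in ELA (log2 2.68 ± 0.11 SE, adjusted p = 9.09e-21) and ribosome-bound Fos RNA 3.65-fold (log2 1.87 ± 0.10 SE, adjusted p = 1.47e-77), so that the IP over input ratio went from 1.02 ± 0.00839 in ES to 0.582 ± 0.00352 in ELA (SD, n = 2).

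Jun, the partner of Fos, was at 167 and 174 in the ES inputs and 435 and 360.4 in the ELA inputs, and at 135 and 159 and 372 and 322 in the IPs. The stages did not overlap in either fraction, and the rise was alike in both: 2.33-fold in total (log2 1.21, adjusted p = 3.12e-09) and 2.36-fold in ribosome-bound RNA (log2 1.24, adjusted p = 9.96e-23). Jund, a Jun paralogue that is present in most cells without stimulation, was at 152 and 132 in the ES inputs and 272 and 339 in the ELA inputs, on 10 and 32 reads. Its IP values were 132 and 122 in ES and 193 and 214 in ELA. Jund was higher in every ELA library than in any ES library, by 2.15-fold in total RNA (log2 1.09 ± 0.15 SE, adjusted p = 8.48e-08) and 1.60-fold on ribosomes (log2 0.68 ± 0.13 SE, adjusted p = 8.03e-07).

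Sox11, Nr6a1 and Pbx3 rose together with the AP-1 genes. Sox11, an HMG box factor of the early neural plate and of neural progenitors, went from 501 and 607 in the ES inputs to 2447 and 2576 in the ELA inputs. On ribosomes it went from 502 and 492 to 2119 and 2029. The stages were far apart in both fractions, with folds of 4.53 in total RNA (log2 2.18 ± 0.11 SE, adjusted p = 4e-18) and 4.17 in ribosome-bound RNA (log2 2.06 ± 0.10 SE, adjusted p = 8.83e-100), the largest rise on ribosomes among the 37 genes.

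Nr6a1, the germ cell nuclear factor, is an orphan receptor known as a repressor of Pou5f1 during differentiation. It measured 1122 and 1162 in the ES inputs and 3480.0 and 3879.7 in the ELA inputs, and 1074 and 1057 and 3293 and 3645 in the respective IPs. Input and IP followed each other closely at both stages, and the rise was 3.22-fold in total (log2 1.69, adjusted p = 7.06e-16) and 3.26-fold in ribosome-bound RNA (log2 1.70, adjusted p = 2.17e-75). After the length and GC correction the ribosome-bound rise was log2 1.10, adjusted p = 1.76e-25, the IP over input ratio in ELA was lower (log2 -0.46, adjusted p = 7.04e-06) and so was its change between stages (log2 -0.34, adjusted p = 0.0284). Pou5f1 itself, no member of the group, fell in the same libraries (log2 -1.18 in total and log2 -1.73 in ribosome-bound RNA). Pbx3, a homeodomain partner of HOX and MEIS proteins, was at 107 and 109 in the ES inputs and at 299 and 413 in the ELA inputs, on 11 and 39 reads. Its IP values were 85.2 and 93.4 in ES and 209 and 227 in ELA. Despite the wide spread of the ELA inputs the stages did not overlap, and Pbx3 was 3.29-fold higher in total (log2 1.69 ± 0.16 SE, adjusted p = 1.33e-11) and 2.44-fold higher in ribosome-bound RNA (log2 1.28 ± 0.14 SE, adjusted p = 1.9e-19).

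The KLF and SP genes, zinc finger factors that bind GC-rich sites, were divided. Klf2, one of the KLF factors that maintain the naive state, was at 1139 and 1144 in the ES inputs and fell to 381 and 349.8 in the ELA inputs. On ribosomes it was at 1127 and 1226 in ES and 311 and 301 in ELA. The ELA libraries agreed closely with each other and lay well under all ES libraries, 3.12-fold lower in total (log2 -1.64 ± 0.12 SE, adjusted p = 1.43e-14) and 3.84-fold lower in ribosome-bound RNA (log2 -1.94 ± 0.10 SE, adjusted p = 2.06e-82), the largest fall among the 37 genes in both fractions. After the length and GC correction Klf8 fell further than Klf2 in total RNA (log2 -1.66 against -1.54). On ribosomes Tead1 (log2 -1.72) and Klf8 (log2 -1.50) then fell further than Klf2 (log2 -1.47).

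Klf10, a TGF-beta-inducible repressor, was at 1022 and 1251 in the ES inputs and 571 and 509 in the ELA inputs, and at 1137 and 1297 and 405 and 391 in the IPs. It was 2.11-fold lower in total (log2 -1.07, adjusted p = 1.66e-09) and 3.06-fold lower on ribosomes (log2 -1.61, adjusted p = 2.73e-59). Klf8, a repressor of this family, was at 272 and 329 in the ES inputs against 109 and 117 in the ELA inputs, the latter from 4 and 11 reads. The deeper IP libraries showed the same, with 310.4 and 313 in ES and 126 and 129 in ELA, and the fall was 2.67-fold in total (log2 -1.40, adjusted p = 1.6e-10) and 2.44-fold in ribosome-bound RNA (log2 -1.28, adjusted p = 2e-23).

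Klf6 and Sp4 went the other way. Klf6 rose 1.73-fold in total RNA (log2 0.80, adjusted p = 6.13e-08) and 1.34-fold on ribosomes (log2 0.42, adjusted p = 4.08e-06). Sp4, a brain-enriched relative of Sp1, rose 1.75-fold and 1.40-fold (log2 0.80, adjusted p = 6.37e-06, and log2 0.49, adjusted p = 0.000246), the second of which was not called after the length and GC correction (log2 0.03, adjusted p = 0.805). Klf11, a relative of Klf10, had a total RNA change of log2 0.11 (adjusted p = 0.515) and was 1.24-fold lower on ribosomes (log2 -0.31, adjusted p = 0.0161), a call lost without ES IP replicate 1 (log2 -0.30, adjusted p = 0.0998), ES IP replicate 2 (log2 -0.32, adjusted p = 0.0807) or ELA IP replicate 2 (log2 -0.22, adjusted p = 0.14).

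**Figure D2:**
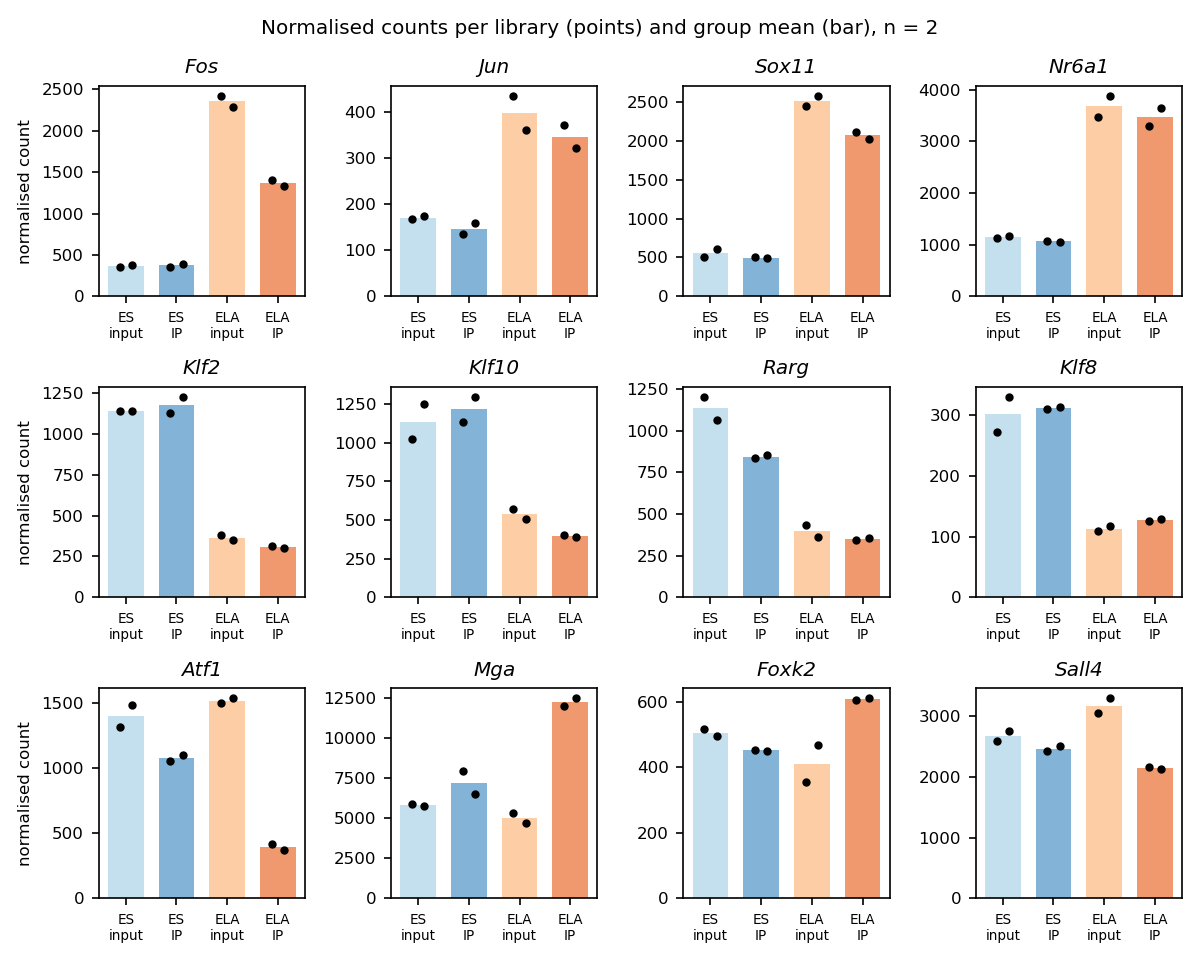
Normalised counts (vertical axes, each from 0) of 12 transcription factor genes in every library, with points for the 2 libraries of a group and bars for their mean. Fos, Jun, Sox11 and Nr6a1 (top) are higher in both ELA groups, Klf2, Klf10, Rarg and Klf8 (middle) are lower, and Atf1, Mga, Foxk2 and Sall4 (bottom) differ between input and IP in ELA.

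Rarg, the retinoic acid receptor gamma, was at 1203 and 1066 in the ES inputs and 435 and 360.4 in the ELA inputs. Its IP values were 837 and 853 in ES and 347 and 356 in ELA. The stages were clearly apart in both fractions, with a fall of 2.85-fold in total (log2 -1.51 ± 0.12 SE, adjusted p = 3.51e-13) and 2.41-fold in ribosome-bound RNA (log2 -1.26 ± 0.10 SE, adjusted p = 7.92e-36).

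Among the 4 ETS genes, 2 were called higher and 2 lower in total RNA (34.5% and 35.8% of all genes), of which Elk4 depended on single libraries. Etv5, a PEA3-group factor induced by FGF signalling, was at 3135 and 3030.0 in the ES inputs and 1686 and 1791 in the ELA inputs, and at 2952 and 3286 and 1923 and 1786 in the IPs. It was lower in every ELA library, by 1.77-fold (log2 -0.83, adjusted p = 1.9e-08) and 1.68-fold (log2 -0.75, adjusted p = 1.98e-16). Etv1, of the same group, was at 226 and 237 in the ES inputs and 109 and 127 in the ELA inputs, on 4 and 12 reads. Unlike those of Etv5, its IP values were close at both stages, 201 and 213 in ES and 216 and 226 in ELA. The fall in total RNA was 1.96-fold (log2 -0.97 ± 0.14 SE, adjusted p = 3.48e-07), and the ribosome-bound change was log2 0.09 (adjusted p = 0.486).

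Elk4, a partner of serum response factor, was at 197 and 257 in the ES inputs and 272 and 297 in the ELA inputs, on 10 and 28 reads. On ribosomes the stages were further apart, 143 and 152 against 258 and 241, a rise of 1.69-fold (log2 0.75 ± 0.13 SE, adjusted p = 3.98e-09). The rise in total RNA was 1.25-fold (log2 0.34 ± 0.15 SE, adjusted p = 0.0382). It was lost without any of ES input replicate 1 (log2 0.14, adjusted p = 0.457), ELA input replicate 2 (log2 0.27, adjusted p = 0.0986), ES IP replicate 1 (log2 0.34, adjusted p = 0.0547) or ES IP replicate 2 (log2 0.34, adjusted p = 0.0551), and with the deposited size factors (log2 0.24, adjusted p = 0.143). Etv3, a repressor of this family, rose 1.78-fold in total (log2 0.81, adjusted p = 1.62e-05) and 1.67-fold in ribosome-bound RNA (log2 0.74, adjusted p = 4.15e-08), the latter not called after the length and GC correction (log2 0.23, adjusted p = 0.0671).

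Of the 6 forkhead genes, 4 were called higher and 1 lower in ELA total RNA (34.5% and 35.8% of all genes), and after the length and GC correction only Foxo4 and Foxk2 kept these calls. Foxo1, Foxo3 and Foxo4 encode the factors that insulin signalling through AKT keeps out of the nucleus. Foxo4 was at 380.5 and 343 in the ES inputs and 544 and 562 in the ELA inputs, but at 390.1 and 384 in the ES IPs and 387 and 341 in the ELA IPs. The inputs of the stages were apart and the IPs overlapped, so that total RNA rose 1.53-fold (log2 0.61 ± 0.12 SE, adjusted p = 5.33e-05) with a ribosome-bound change of log2 -0.09 (adjusted p = 0.433). Foxo1 was at 307 and 362 in the ES inputs and 408 and 445 in the ELA inputs, and at 274 and 268 and 245 and 236 in the IPs. Its ELA inputs were above and its ELA IPs below those of ES, with log2 0.35 in total (adjusted p = 0.0168) and -0.17 on ribosomes (adjusted p = 0.149). The call in total RNA was lost without ES input replicate 1 (log2 0.24, adjusted p = 0.192), without ELA input replicate 2 (log2 0.29, adjusted p = 0.054) with the deposited size factors (log2 0.25, adjusted p = 0.0886) and after the length and GC correction (log2 0.16, adjusted p = 0.228), which called the ribosome-bound change lower (log2 -0.71, adjusted p = 2.04e-09). Foxo3 rose 1.46-fold in total (log2 0.55, adjusted p = 0.000718) and 1.37-fold on ribosomes (log2 0.46, adjusted p = 0.000208), but with the correction its total change was not called (log2 0.20, adjusted p = 0.145) and its ribosome-bound change was negative (log2 -0.34, adjusted p = 0.00337). The ribosome-bound call was also lost without ES IP replicate 1 (log2 0.32, adjusted p = 0.0653).

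Foxk2, which with Foxk1 regulates glycolysis and autophagy genes, moved in opposite directions in the 2 fractions. Its normalised counts were 516 and 494 in the ES inputs and 353 and 466 in the ELA inputs, and 454 and 449.8 in the ES IPs and 605 and 611 in the ELA IPs. The ELA inputs spread widely and both lay below the ES inputs, while the ELA IPs were the highest values and nearly equal. Total RNA fell 1.23-fold (log2 -0.31 ± 0.13 SE, adjusted p = 0.0287) and ribosome-bound RNA rose 1.35-fold (log2 0.43 ± 0.10 SE, adjusted p = 4.9e-05). The fall was lost without ELA input replicate 1 (log2 -0.11, adjusted p = 0.417), ES input replicate 1 (log2 -0.28, adjusted p = 0.143) or ES input replicate 2 (log2 -0.34, adjusted p = 0.074) and with scaling to total reads, and the rise was not seen after the length and GC correction (log2 -0.11, adjusted p = 0.269). Foxk1 rose 1.66-fold in total (log2 0.73, adjusted p = 8.68e-06) and 1.91-fold on ribosomes (log2 0.92, adjusted p = 5.04e-15), and neither call held after the correction (log2 0.19, adjusted p = 0.169, and log2 -0.06, adjusted p = 0.627).

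Foxm1, a driver of G2 and M phase genes, was at 493 and 442 in the ES inputs, 598 and 477 in the ELA inputs, 336 and 343 in the ES IPs and 414 and 395 in the ELA IPs. The inputs of the stages overlapped (log2 0.19, adjusted p = 0.176), while the IPs did not (log2 0.25, adjusted p = 0.0225). The rise in ribosome-bound RNA was lost without ELA IP replicate 1 (log2 0.22, adjusted p = 0.0894) or either ES IP library (log2 0.24, adjusted p = 0.129 without replicate 1, and log2 0.27, adjusted p = 0.0866 without replicate 2) and with the deposited size factors (log2 0.14, adjusted p = 0.218), and the value was negative after the length and GC correction (log2 -0.16, adjusted p = 0.119).

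Atf1, a leucine zipper factor that binds the cyclic AMP response element, showed the widest separation between the 2 fractions. The 4 input libraries were at similar levels, 1318 and 1479.9 in ES and 1495 and 1537 in ELA. The IP libraries were at 1056 and 1099 in ES but at 414 and 369 in ELA, below all 6 other libraries. Total RNA changed by log2 0.12 (adjusted p = 0.352) and ribosome-bound RNA was 2.75-fold lower (log2 -1.46 ± 0.10 SE, adjusted p = 5.08e-51). After the length and GC correction the ribosome-bound fall was log2 -0.998, adjusted p = 1.06e-19, and total RNA was called higher (log2 0.28, adjusted p = 0.0117). Atf2, a stress-activated AP-1 partner, had a total change of log2 0.03 (adjusted p = 0.863; log2 0.25, adjusted p = 0.0496 without ELA input replicate 1; and log2 -0.29, adjusted p = 0.00915 after the length and GC correction) and was 1.25-fold lower on ribosomes (log2 -0.33, adjusted p = 0.00081), a call lost without ELA IP replicate 1 (log2 -0.20, adjusted p = 0.0855). Atf6, the membrane-bound sensor of endoplasmic reticulum stress, fell in both, 1.87-fold in total (log2 -0.90, adjusted p = 6.26e-08) and 1.47-fold on ribosomes (log2 -0.56, adjusted p = 2.46e-07), the latter at log2 -1.30, adjusted p = 2.43e-23, after the correction.

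Mga, which pairs with Max and is part of a variant Polycomb complex, was the reverse of Atf1. Its normalised counts were 5892 and 5741 in the ES inputs and 5329 and 4717 in the ELA inputs. In the IPs they were 7942 and 6483 in ES and 11995 and 12497 in ELA, the latter above all other libraries. Ribosome-bound Mga RNA was 1.70-fold higher in ELA (log2 0.77 ± 0.09 SE, adjusted p = 3.01e-18) with a total change of log2 -0.21 (adjusted p = 0.0677). That total change was called lower without ELA input replicate 1 (log2 -0.30, adjusted p = 0.00746), with the replicate number as a block (log2 -0.21, adjusted p = 0.0442) and after the length and GC correction (log2 -0.9998, adjusted p = 1.44e-26). Mga has the longest transcript of the 37 genes (13931 bases, 9129 of them coding), and after the length and GC correction the ribosome-bound change was negative (log2 -0.60, adjusted p = 3.66e-13).

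Prdm2 and Prdm4 encode zinc finger proteins with a PR domain, which in Prdm2 methylates histone H3. Prdm2 was nearly level in the inputs, 1152 and 1086 in ES and 1169 and 1166 in ELA, and higher in the ELA IPs (1784 and 1738) than in the ES IPs (1117 and 968). The ribosome-bound rise was 1.69-fold (log2 0.76 ± 0.09 SE, adjusted p = 1.22e-15) and was not seen after the length and GC correction (log2 -0.06, adjusted p = 0.517), its transcript of 7304 bases being among the long ones. The total change, log2 0.06 (adjusted p = 0.624), was called lower after the correction (log2 -0.29, adjusted p = 0.00674). Prdm4 fell in the inputs from 996 and 1270.3 to 679.7 and 657 while its IPs overlapped, 872 and 913 in ES and 889 and 972 in ELA. Its total RNA was 1.70-fold lower (log2 -0.75 ± 0.12 SE, adjusted p = 1.27e-06), with a ribosome-bound change of log2 0.06 (adjusted p = 0.562).

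Sall4, a zinc finger factor of the pluripotency network, was at 2588 and 2756 in the ES inputs and 3045 and 3297 in the ELA inputs. In the IPs it was at 2427 and 2502 in ES and 2161 and 2136 in ELA. The ELA inputs were thus the highest and the ELA IPs the lowest values of this gene, with changes of log2 0.25 ± 0.10 SE, adjusted p = 0.0336, in total and log2 -0.20 ± 0.09 SE, adjusted p = 0.033, in ribosome-bound RNA. Both are small, and leaving out single libraries ended either call. In total RNA this held for ES input replicate 1 (log2 0.20, adjusted p = 0.182), ES input replicate 2 (log2 0.29, adjusted p = 0.0548), ELA input replicate 2 (log2 0.19, adjusted p = 0.109), ES IP replicate 1 (log2 0.25, adjusted p = 0.0567) and ES IP replicate 2 (log2 0.25, adjusted p = 0.0567). In ribosome-bound RNA it held for ES IP replicate 1 (log2 -0.22, adjusted p = 0.0707), ES IP replicate 2 (log2 -0.18, adjusted p = 0.152), ELA IP replicate 1 (log2 -0.21, adjusted p = 0.0597) and ELA IP replicate 2 (log2 -0.19, adjusted p = 0.0845). Total Sall4 RNA was not called with the deposited size factors (log2 0.15, adjusted p = 0.241) or after the length and GC correction (log2 0.04, adjusted p = 0.736) and the ribosome-bound fall was larger after that correction (log2 -0.76, adjusted p = 4.46e-17). Sall1, its paralogue, rose 1.45-fold in total (log2 0.52, adjusted p = 0.000236) and 1.45-fold on ribosomes (log2 0.54, adjusted p = 9.77e-09), with log2 0.00, adjusted p = 0.996 on ribosomes after the correction. Of the 13 pluripotency-associated factors looked up, the table held Klf2, Sall1, Sall4 and Nr6a1, of which 3 were higher and 1 lower in total RNA (34.5% and 35.8% of all genes) and 2 were higher and 2 lower on ribosomes (41.1% and 42.3% of all genes).

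The E2F and DP genes, whose products dimerise to control genes of DNA replication, were level or lower. Tfdp1, the main DP subunit, was at 1259.7 and 1292 in the ES inputs and 1142 and 879.8 in the ELA inputs. Its IP values were 1087 and 1071 in ES and 757 and 652 in ELA. The IPs of the stages were clearly apart (1.53-fold lower in ELA, log2 -0.62 ± 0.10 SE, adjusted p = 1.84e-10), and the inputs less so (1.26-fold, log2 -0.35 ± 0.12 SE, adjusted p = 0.0113). The total RNA call was lost without ES input replicate 1 (log2 -0.37, adjusted p = 0.0557), ES input replicate 2 (log2 -0.33, adjusted p = 0.0805) or ELA input replicate 2 (log2 -0.16, adjusted p = 0.206) and after the length and GC correction (log2 -0.18, adjusted p = 0.12), which left the ribosome-bound change at log2 -0.19, adjusted p = 0.0307. Tfdp2, the other DP subunit, was at 1099.7 and 1241 in the ES inputs, 1088 and 1187 in the ELA inputs, 1074 and 1115 in the ES IPs and 1132 and 1269 in the ELA IPs, and neither change passed the test (log2 -0.04 and 0.13). After the length and GC correction both were called lower (log2 -0.39, adjusted p = 0.00033 in total, and log2 -0.49, adjusted p = 2.66e-08 on ribosomes).

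E2f4, the E2F that represses genes in resting cells with the pocket proteins, was at 579.6 and 477 in the ES inputs and 381 and 392 in the ELA inputs, on 14 and 37 reads. In the IPs it was at 347 and 337 and 264 and 279. It was lower at the ELA stage in both fractions, 1.37-fold (log2 -0.44, adjusted p = 0.00264) and 1.26-fold (log2 -0.33, adjusted p = 0.00304). The first call was lost without ES input replicate 1 (log2 -0.30, adjusted p = 0.0895) and the second without ES IP replicate 1 (log2 -0.31, adjusted p = 0.05), and after the length and GC correction neither was called (log2 -0.16, adjusted p = 0.234 in total, and log2 0.11, adjusted p = 0.319 on ribosomes).

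The 2 TEAD genes, which encode the DNA-binding partners of Yap1, moved apart. Tead1 was at 1381 and 1723 in the ES inputs and 870.0 and 1092 in the ELA inputs, and at 1449 and 1496 and 963 and 1025 in the IPs. It was lower in all ELA libraries, 1.58-fold in total (log2 -0.66 ± 0.12 SE, adjusted p = 1.22e-05) and 1.48-fold on ribosomes (log2 -0.57 ± 0.09 SE, adjusted p = 2.25e-09). After the length and GC correction the total change was log2 -1.37, adjusted p = 2.37e-39, and the ribosome-bound change log2 -1.72, adjusted p = 6.73e-38. Tead2 was at 821 and 689.8 in the ES inputs and 1088 and 848 in the ELA inputs, and at 610.3 and 592 and 996 and 884 in the IPs. It was higher in ELA, by 1.56-fold on ribosomes (log2 0.64, adjusted p = 1.03e-10) and by 1.28-fold in total RNA (log2 0.35, adjusted p = 0.013), the latter lost without ELA input replicate 1 (log2 0.17, adjusted p = 0.187) or ES input replicate 2 (log2 0.23, adjusted p = 0.221) and with the deposited size factors (log2 0.25, adjusted p = 0.0682). Yap1 itself was higher in both fractions (log2 0.34 in total and log2 0.50 in ribosome-bound RNA).

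Id1, a helix-loop-helix protein without a DNA-binding region that is a target of BMP signalling and blocks E proteins, was at 118 and 164 in the ES inputs and 245 and 212 in the ELA inputs, on 9 and 20 reads. Its IP values overlapped, 128 and 179.9 in ES and 183 and 167 in ELA. Total RNA was 1.62-fold higher in ELA (log2 0.71 ± 0.17 SE, adjusted p = 0.000353), with a ribosome-bound change of log2 0.20 (adjusted p = 0.161). Id1 has the shortest transcript of the 37 genes (1160 bases), and after the length and GC correction the ribosome-bound change was log2 1.21, adjusted p = 2.25e-15. Tcf3, an E protein and so a target of Id1, was higher in ELA (log2 0.48 in total and log2 0.38 in ribosome-bound RNA).

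Ribosome enrichment, the IP over input ratio, asks how far an mRNA is on ribosomes relative to its total amount. In ES it was narrow for these genes, from log2 -0.62 (E2f4) to 0.30 (Mga), with a median of -0.12 against -0.02 over all genes. Mga was called higher (1 of 37, 2.70%, against 19.5% of all genes) and 11 were called lower (29.7% against 20.0%). After the length and GC correction 5 were called higher and 10 lower, with Etv3, Foxo4, Id1 and Klf2 added to the higher and Tfdp2 to the lower genes. For all genes the share after this correction was not counted. The lowest were E2f4 (log2 -0.62 ± 0.11 SE, adjusted p = 2.7e-07, ratio 0.653 ± 0.0763), Elk4 (log2 -0.60 ± 0.13 SE, adjusted p = 1.54e-05, ratio 0.660 ± 0.0975) and Foxm1 (log2 -0.46 ± 0.11 SE, adjusted p = 0.000135, ratio 0.728 ± 0.0667), ratios being means ± SD of 2 replicates. Next came Rarg, Foxo3, Atf1, Prdm4, Tead2, Foxo1, Atf2 and Tfdp1, between -0.42 and -0.24. Of these, only Atf1 kept its call under every alternative tried. Rarg (log2 -0.19, adjusted p = 0.0817) and Tead2 (log2 -0.11, adjusted p = 0.301) were not called after the length and GC correction. Foxo1, Foxo3, Prdm4, Atf2 and Tfdp1 lost their calls without ES input replicate 2 (adjusted p 0.0923 to 0.301) and without ES IP replicate 1 (0.0708 to 0.208). Tead2 and Tfdp1 lost theirs without ES input replicate 1 (adjusted p = 0.19 and 0.0774), and Atf2, Foxo1, Tead2 and Tfdp1 without ES IP replicate 2 (0.0738 to 0.188). This comparison was fitted without ELA input replicate 1, and with all 8 libraries 8 genes were called, Atf2 (adjusted p = 0.118), Foxo1 (0.0908), Tead2 (0.0551) and Tfdp1 (0.143) being lost. The call of Mga (log2 0.30, adjusted p = 0.00244) was lost without ES IP replicate 1 (log2 0.16, adjusted p = 0.321), and without that library 6 of the 37 genes were called in all, without ES input replicate 2 there were 7.

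In ELA the ratios spread further, from log2 -1.95 (Atf1) to 1.29 (Mga). Of the 37 genes 6 were enriched (16.2%, against 36.8% of all genes) and 17 depleted (45.9%, against 37.2%), with a median of -0.21 against -0.01. The enriched genes were Mga (log2 1.29 ± 0.10 SE, adjusted p = 4.95e-13), Etv1 (log2 0.90 ± 0.14 SE, adjusted p = 1.01e-06), Prdm2 (log2 0.59 ± 0.11 SE, adjusted p = 1.43e-05), Foxk2, Atf6 and Prdm4. Mga was at log2 0.58, adjusted p = 6.59e-10, after the length and GC correction, below Etv1 (log2 0.89, adjusted p = 3.53e-10), and Prdm2 and Atf6 were not called after it (log2 0.17, adjusted p = 0.122, and log2 0.09, adjusted p = 0.483). The most depleted were Atf1 (log2 -1.95 ± 0.11 SE, adjusted p = 1.19e-16), Foxo1 (log2 -0.82 ± 0.13 SE, adjusted p = 9.84e-07) and Fos (log2 -0.78 ± 0.11 SE, adjusted p = 2.02e-07), followed by Pbx3 and Atf2. The depletion of Id1 (log2 -0.38, adjusted p = 0.0401) and Sox11 (log2 -0.28, adjusted p = 0.0297), both short transcripts, was turned after the correction (log2 0.39, adjusted p = 0.00912, and log2 0.43, adjusted p = 6.43e-05), and those of Jund (log2 -0.10, adjusted p = 0.514) and E2f4 (log2 -0.14, adjusted p = 0.277) were no longer called. The correction added calls for Klf2 (higher) and for Foxk1, Nr6a1, Sall1, Sp4, Tead1 and Tfdp2 (lower). Without ELA input replicate 1, Foxm1 (log2 -0.24, adjusted p = 0.0885), Id1 (log2 -0.28, adjusted p = 0.122) and Klf11 (log2 -0.12, adjusted p = 0.468) were not called and Etv3 was called higher (log2 0.40, adjusted p = 0.0179, against log2 0.19, adjusted p = 0.262). The IP and input libraries did not overlap for 28 of the 37 genes in ELA (75.7%, against 83.3% of all genes) and 23 in ES (62.2%, against 70.8%).

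The change of the ratio between the stages, tested as the interaction of stage and fraction, passed for 12 of the 37 genes. It was positive for 5 (13.5%, against 28.4% of all genes) and negative for 7 (18.9%, against 27.7%), with a median of 0.02 against 0.01. This fit does not pair input and IP of a lysate. With the lysate as the block 18 were called, 6 positive and 12 negative, the 12 genes among them. With the replicate number as the block Atf2 (log2 -0.36, adjusted p = 0.0425) and Id1 (log2 -0.51, adjusted p = 0.0262) were called as well. With scaling to total reads the split was 5 and 12, and all of the 12 called with TMM were among these. Under these alternatives the share of all genes was not counted. The ELA inputs enter this ratio, the ELA enrichment and the total RNA change alike, so the 3 are not independent. The gains were Etv1, Mga, Prdm4, Foxk2 and Prdm2. Etv1 went from ratios of 0.891 and 0.898 in the ES replicates to 1.99 and 1.78 in ELA (log2 1.06 ± 0.20 SE, adjusted p = 4.26e-05), which rests on 4 and 12 reads in the ELA inputs. Mga went from 1.35 and 1.13 to 2.25 and 2.65 (log2 0.98 ± 0.15 SE, adjusted p = 1.17e-06), and Prdm4 from 0.875 and 0.719 to 1.31 and 1.48 (log2 0.81 ± 0.17 SE, adjusted p = 0.000138). Foxk2 went from 0.880 and 0.910 to 1.71 and 1.31 (log2 0.74, adjusted p = 0.000764) and Prdm2 from 0.970 and 0.892 to 1.53 and 1.49 (log2 0.70, adjusted p = 0.000322). In all 5 both ELA ratios lay above both ES ratios. This adds no support, because the 5 were chosen by this test from a table filtered for agreeing replicate ratios, and the share over all genes was not counted. After the length and GC correction Mga was at log2 0.40, adjusted p = 0.00494, Foxk2 at log2 0.39, adjusted p = 0.031, Etv1 at log2 1.15, adjusted p = 2.94e-08 and Prdm4 at log2 0.63, adjusted p = 9.62e-05, while Prdm2 was not called (log2 0.24, adjusted p = 0.147).

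The losses were Atf1, Fos, Foxo4, Klf10, Foxo1, Sall4 and Klf6. Atf1 went from 0.801 and 0.742 in the ES replicates to 0.277 and 0.240 in ELA (log2 -1.58 ± 0.16 SE, adjusted p = 8.39e-10). Fos went from 1.02 and 1.03 to 0.580 and 0.585 (log2 -0.81 ± 0.16 SE, adjusted p = 6.6e-05) and Foxo4 from 1.03 and 1.12 to 0.712 and 0.607 (log2 -0.70 ± 0.18 SE, adjusted p = 0.00103). In every one of the 7 both ELA ratios lay below both ES ratios, which for genes called by this test in the filtered table adds no support either. The 4 others were smaller: Klf10 log2 -0.54, adjusted p = 0.00806, Foxo1 log2 -0.53, adjusted p = 0.0159, Sall4 log2 -0.44, adjusted p = 0.0102 and Klf6 log2 -0.37, adjusted p = 0.0362. Single libraries ended these 4 calls. Klf10 was lost without ES input replicate 1 (log2 -0.40, adjusted p = 0.0929) or ES IP replicate 2 (log2 -0.45, adjusted p = 0.0781), and so was Sall4 (log2 -0.40, adjusted p = 0.0535, and log2 -0.42, adjusted p = 0.0545). Foxo1 was lost without ES input replicate 1 (log2 -0.41, adjusted p = 0.0964), ES IP replicate 1 (log2 -0.51, adjusted p = 0.067), ES IP replicate 2 (log2 -0.54, adjusted p = 0.0539) or ELA IP replicate 2 (log2 -0.50, adjusted p = 0.0539). Klf6 was lost without ES input replicate 1 (log2 -0.27, adjusted p = 0.204), ES IP replicate 1 (log2 -0.42, adjusted p = 0.0514), ES IP replicate 2 (log2 -0.33, adjusted p = 0.15) or ELA IP replicate 1 (log2 -0.30, adjusted p = 0.156) and after the length and GC correction (log2 -0.24, adjusted p = 0.131), which added negative calls for Foxo3, Klf11, Nr6a1, Sall1 and Tead1. Without the shallow ELA input replicate 1 all 12 genes were still called, with 18 in all. The gained calls were Atf2 (log2 -0.58, adjusted p = 0.000371), Pbx3 (log2 -0.64, adjusted p = 0.00719) and Jund (log2 -0.57, adjusted p = 0.0126) downwards and Tead2 (log2 0.47, adjusted p = 0.00481), Rarg (log2 0.39, adjusted p = 0.0254) and Atf6 (log2 0.39, adjusted p = 0.032) upwards.

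**Figure D3:**
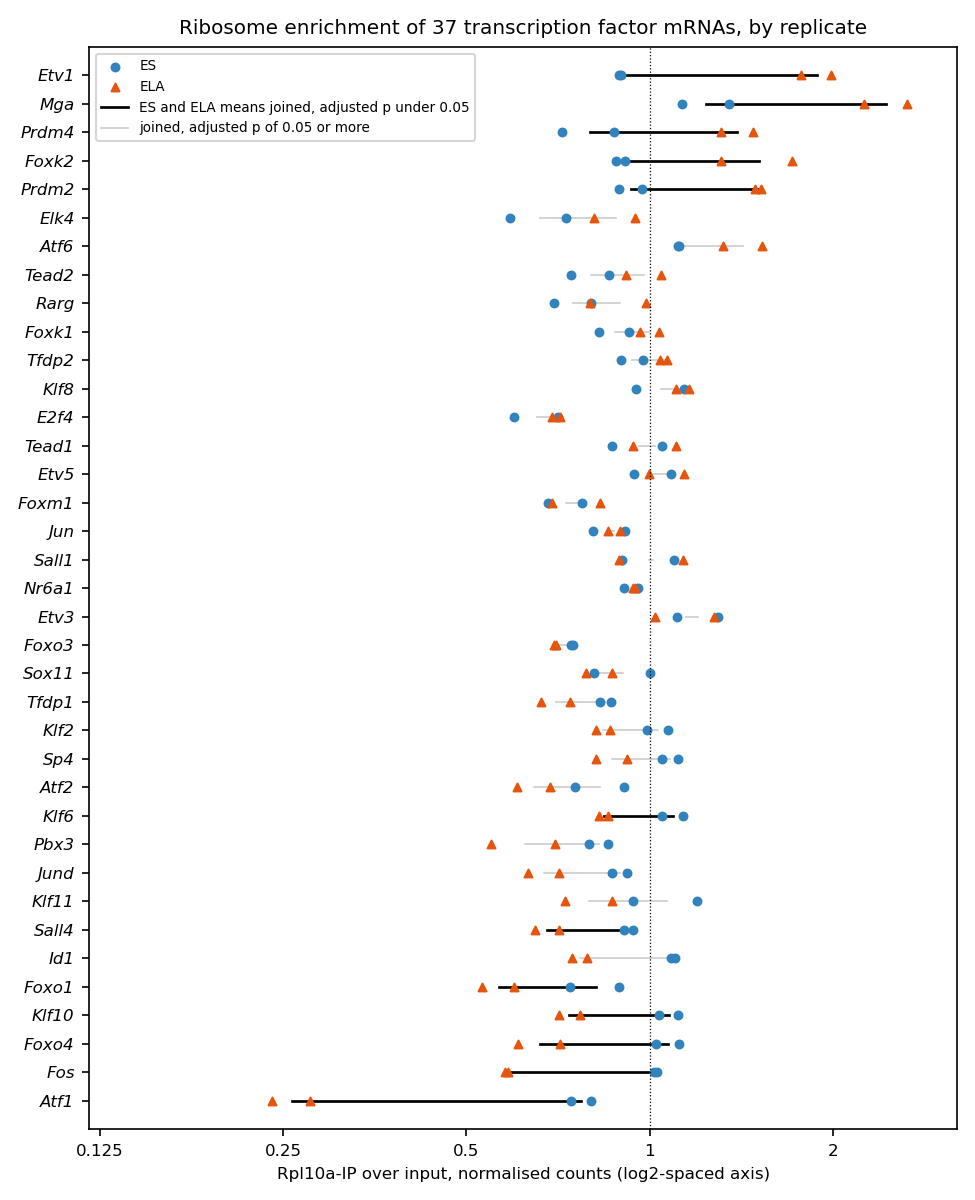
IP over input ratio of normalised counts (log-spaced axis) for the 37 genes in the 2 ES replicates (circles) and the 2 ELA replicates (triangles), ordered by the change between stages. Lines join the stage means, in black where the change has an adjusted p under 0.05. Etv1 and Mga at the top move right in ELA, and Atf1 at the bottom moves left, to 0.258 in the mean.

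The change in ribosome-bound RNA followed transcript length across the table, with Spearman's rho of 0.60 over 3117 genes with a transcript in GENCODE. Among the 37 transcription factor genes rho was 0.16. For the change in ribosome enrichment it was 0.44 over all genes and 0.44 in the 37, and for coding length 0.62 and 0.34. These are descriptions across genes, which share their libraries and are not independent replicates. The short transcripts that rose (Sox11, 2013 bases, and Fos, 2108 bases) and the long ones that fell (Tead1, 9962 bases, and Atf6, 7463 bases) lay away from the trend of the table. Changes of Fos and Sox11 on ribosomes were log2 2.31, adjusted p = 1.06e-44, and log2 2.43, adjusted p = 2.49e-47, after the length and GC correction, and those of Tead1 and Atf6 were log2 -1.72, adjusted p = 6.73e-38, and log2 -1.30, adjusted p = 2.43e-23. The part of length in the differences of the other genes was not tested beyond this correction.

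**Figure D4:**
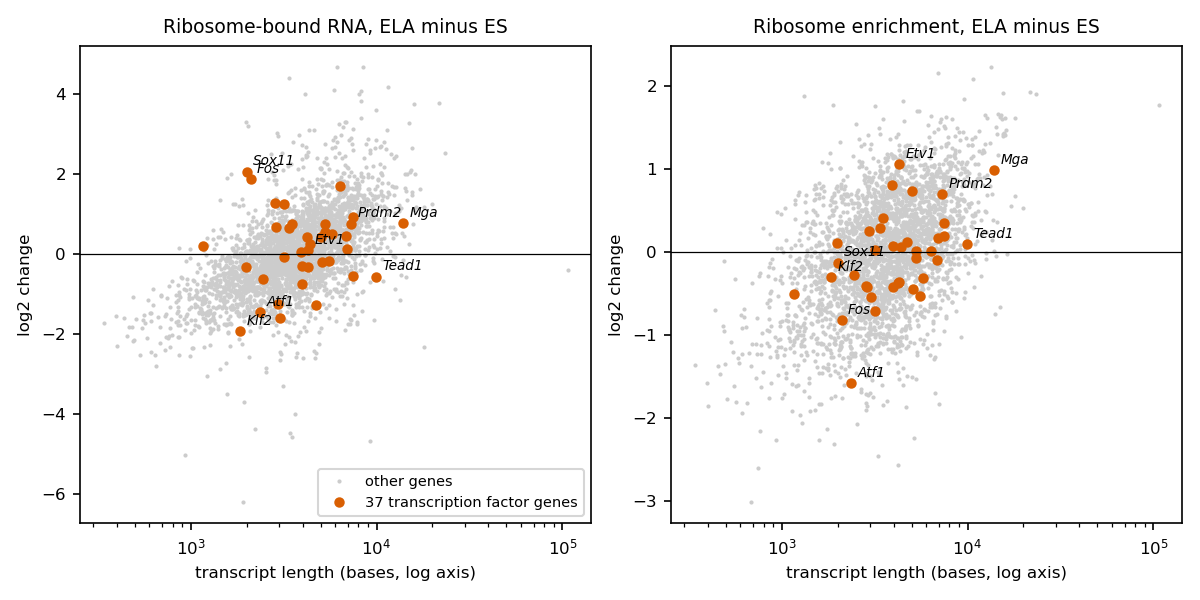
Log2 change from ES to ELA against transcript length (log axis, bases) for the 37 transcription factor genes (orange) and the other genes with a transcript (grey), in ribosome-bound RNA (left) and in ribosome enrichment (right). Among all 3117 genes longer transcripts lie higher in both panels (rho 0.60 and 0.44), with Sox11 and Fos above the others of their length on the left and Atf1 low in both.

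Proteins that work with these factors were looked up in a list of 33, of which the table held 15. In total RNA 8 were higher and 5 lower in ELA (34.5% and 35.8% of all genes), and in ribosome-bound RNA 9 and 4 (41.1% and 42.3% of all genes; medians log2 0.34 and 0.49, against -0.02 for all genes in both). Values of genes outside the 37, here and below, are given without the length and GC correction. Across the table longer transcripts lay higher on ribosomes in ELA (rho 0.60), and what length adds to these values was not tested. The histone acetyltransferase coactivators Crebbp (transcript of 7507 bases) and Ep300, which Atf1, Fos and Jun recruit, rose on ribosomes (log2 0.81 and log2 0.79). The retinoblastoma gene Rb1, which binds E2F factors, rose in both fractions (log2 0.46 in total and log2 0.94 on ribosomes), and Mybl2, which acts with the Lin9 and Lin54 complex on cell cycle genes, fell in both (log2 -2.40 and log2 -2.21). Ncoa3, a coactivator of nuclear receptors such as Rarg, fell (log2 -2.09 and log2 -1.53) and Ncoa2 rose (log2 0.75 and log2 0.94). Mnt, a Max partner like Mga, was higher in total RNA (log2 0.34) and lower on ribosomes (log2 -0.60), while Mga rose on ribosomes. In ribosome enrichment of the 15 genes, 1 was higher and 6 lower in ES (19.5% and 20.0% of all genes) and 7 were higher and 5 lower in ELA (36.8% and 37.2%). Between the stages 5 gained and 1 lost (28.4% and 27.7% of all genes).

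Genes known as targets of E2F factors, which the DP subunits serve, were taken as a readout of that pathway, and the table held 12 of 20. None was higher and 7 were lower in ELA total RNA (34.5% and 35.8% of all genes; median log2 -0.28), Mcm5 (log2 -0.82) and Tyms (log2 -0.84) among them. On ribosomes, without the length and GC correction, 5 were higher and 5 lower (41.1% and 42.3% of all genes). The replicative helicase genes Mcm4 (log2 0.56) and Mcm7 (log2 0.68) and the polymerase gene Pola1 (log2 0.94) were higher there, and the cyclin gene Ccna2 (log2 -0.81) lower. The ratio of IP to input was higher for 5 and lower for none of the 12 in ES (19.5% and 20.0% of all genes), and higher for 9 and lower for 2 in ELA (36.8% and 37.2%). It rose between stages for 8 and fell for 2 (28.4% and 27.7% of all genes). The E2F and DP genes themselves were called lower for 2 of 3 in both total and ribosome-bound RNA (35.8% and 42.3% of all genes), calls that after the length and GC correction held for Tfdp1 on ribosomes alone, and for 0 of 3 did the ratio change between stages pass the test.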

How the data were processed

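Total RNA (input) and Rpl10a-precipitated RNA were sequenced in mouse E14Tg2A ES cells and epiblast-like aggregates, 2 libraries per group, grouped by the titles of the samples. The sources name ribosome depletion, TopHat2, the mm10 build, HTSeq and DESeq2, with versions not given in the sources used here, nor whether counting used strand, so reads of antisense or overlapping genes cannot be told apart. The deposited values are a normalised signal, read counts of each gene divided by the authors' DESeq2 size factor of the library, computed within each fraction. The deposited table had been filtered by the authors to 3160 genes. Of its columns, 26 hold the authors' means, deviations, ratios, fold changes and log2 values and were not used.

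Every value was a whole multiple of 1 read (100% within 0.01 reads), and these reads were scaled by TMM over all 8 libraries. Reads over the table ranged from 159587 to 23483388 per library, a 147-fold difference, which makes the ELA inputs the least precise. A floor is 3 reads, and it covers counting error only. log2(normalised count + 1) was fitted for all 3160 genes with limma 3.58.1 in R 4.3.3 (lmFit, eBayes with a trended prior, 1 coefficient per group) and p-values were adjusted by Benjamini-Hochberg over all genes, with a threshold of 0.05. The log2 changes are on this scale, while the folds are ratios of the group means of normalised counts and can differ slightly from them. The ES enrichment and the stage difference of the IP fraction used 7 libraries, without ELA input replicate 1, as in the study's methods, and the other 3 comparisons used all 8 because the ELA input arm needs 2 libraries. The prior degrees of freedom were infinite in the 7-library fits and 30.74 in the other 3 comparisons. With an infinite prior the spread of a gene is the trend over all genes, treated as known, which makes very small p-values easy to reach. Count-based tests were planned on the recovered reads and were not run, because the deposited values are divided by size factors and, with the lowest value of most libraries above 1 read, did not pass a check that takes that value as 1 read. The fit was also run on simulated data, whose outcome is not given here and lends no support to the calls.

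Nothing in the labels says that replicates came from separate cultures, so p-values measure the spread between these libraries, which may be technical. Each input was taken from the lysate of an IP, per the protocol in the labels, and ratios pair the input and IP that share the number in their titles, although another label calls both second inputs replicate 1. Over genes, the correlation of their deviations from the group means was 0.17 in ES and 0.50 in ELA, and between the stages 0.15 (inputs) and -0.02 (IPs). Per-library values are given for the 5 highest and 5 lowest called genes of each stage comparison, the 3 and 3 of each enrichment comparison, and a named list of factors. The rule for the 37 genes uses symbols alone, but this group of genes, the lists and the tests were chosen with earlier results of these data known. Promoters and gene names are from RefSeq with GRCm38.p6, and transcript length and GC content from GENCODE, for 3117 genes and all 37 factors. Alternatives were other scalings, a pseudocount of 10, leaving out the 25% of genes with the lowest mean, replicate blocks, a loess correction for length and GC (span 0.5), and leaving out each library. Control precipitations with an anti-GFP antibody were not analysed here.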

Additional observations from a re-analysis of the deposited data

Results flagged for a closer look

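The change in ribosome enrichment between ES and ELA, a test of whether the IP over input difference itself differs between the stages, passed the threshold for 12 transcription factor genes (limma, interaction of stage and fraction, adjusted p under 0.05). The enrichment was lower in ELA for Atf1 (log2 -1.58), Fos (-0.81), Foxo4 (-0.70), Klf10 (-0.54), Foxo1 (-0.53), Sall4 (-0.44) and Klf6 (-0.37). It was higher in ELA for Prdm2 (log2 0.70), Foxk2 (0.74), Prdm4 (0.81), Mga (0.98) and Etv1 (1.06). Of these, Etv1 has 4 and 12 reads in the ELA inputs, Foxk2 has 13 and 44, and Mga has 196 and 445. No group had enough libraries for a test of single outlying libraries.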

How the results depend on the processing

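Counts of the 37 genes called in each comparison ranged as follows when single libraries were left out: 6 to 12 for enrichment in ES (12 as reported), 19 to 24 for enrichment in ELA (23), 24 to 30 for total RNA (30), 26 to 31 for ribosome-bound RNA (31) and 8 to 18 for the change in enrichment (12). Enrichment in ES and ribosome-bound RNA were fitted on 7 libraries, and with all 8 they gave 8 and 28. A comparison arm left with 1 library was assumed to vary like the other groups. Shares of all genes were not counted under any alternative, so changes in these counts are not read as traits of the 37 genes. Under the other alternatives the counts were 8 to 15, 16 to 26, 18 to 31, 21 to 31 and 10 to 18, and the lowest for total RNA, 18, came from leaving out the 25% of genes with the lowest mean, which leaves 24 of the 37. In enrichment in ES, 7 were called without ES input replicate 2 and 6 without ES IP replicate 1. With the replicate number as a block, every call was kept and 12, 24, 31, 31 and 14 genes were called, and with the lysate as the replicate block 18 were called for the change in enrichment and Tfdp1 lost its call in ES enrichment. In the 1490 values of the 108 called gene results, 1370 kept direction and call, 111 kept the direction but not the call, and 9 turned, all of these with the replicate block and the length and GC correction: enrichment in ELA of Id1 (0.39) and Sox11 (0.43), and the ribosome-bound change of E2f4 (0.11), Foxk1 (-0.057), Foxk2 (-0.11), Foxm1 (-0.16), Foxo3 (-0.34), Mga (-0.60) and Prdm2 (-0.056); the cause was not tested. The deposited size factors put the median change of all genes at log2 -0.12 in total RNA and -0.14 in ribosome-bound RNA, against -0.02 in both, and called 14 factors higher and 13 lower in total RNA and 17 and 14 in ribosome-bound RNA. Total reads put the median ELA enrichment at -0.12 against -0.01. The deposited size factors, computed within each fraction, could not be used for the 2 enrichment comparisons, and the count tests planned (edgeR and DESeq2) were not run.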
